A study of Homo sapiens with 16 samples.

Results

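The unfolded protein response and the ATF4 branch of the integrated stress response were read in SAOS cells through 10 genes, taken as every probe set whose single gene symbol in the platform annotation was ATF4, DDIT3, TRIB3, HSPA5, DNAJB9, HERPUD1, ASNS, CHAC1, DDIT4 or STC2. All 10 genes were found, on 17 of the 54675 probe sets of the array, and they make up 10 of the 19775 genes tested. SAOS cells are a widely used line from a human osteosarcoma and have no working retinoblastoma protein (RB). SMYD2 is a lysine methyltransferase that can methylate RB, and the study set RB with and without SMYD2 side by side. There were 4 groups of 4 arrays, each with replicate numbers 1, 3, 4 and 5: SAOS cells transiently transfected with human RB1 plus mouse SMYD2, with human RB1 alone, with mouse SMYD2 alone, and cells with no transfection, labelled wild type and called control here. No arm with an empty vector is labelled, so what transfection itself does is part of each comparison with control. Differences between transfected groups do not use the control arrays. Their standard errors and p-values in the main fit do, because that fit takes its spread from the arrays of all groups. Nothing in the labels says that the arrays came from separate cultures, so the p-values cover only how much these arrays vary, and that variation may be technical.

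When unfolded proteins build up in the endoplasmic reticulum (ER), the sensors IRE1, PERK and ATF6 raise chaperones such as HSPA5 and factors of ER-associated degradation such as HERPUD1. PERK, like the kinases that sense amino acid shortage, haem shortage or viral RNA, phosphorylates the initiation factor eIF2, which slows translation overall and favours translation of the ATF4 mRNA. ATF4 then activates genes of amino acid supply such as ASNS, and further regulators such as DDIT3 (CHOP), TRIB3 and CHAC1. ATF4 and ATF6 are controlled largely after transcription, which transcript arrays do not show.

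All values are log2 signals made by RMA, and a difference of 1 is a factor of 2. RB1 read 7.40 to 9.62 on the 8 arrays with transfected RB and 6.24 to 6.98 on the 8 without it. SMYD2 readings do not check the other label, since probes designed for the human gene may miss the mouse transcript. Of the osteoblast markers, RUNX2, SP7, ALPL, COL1A1, COL1A2, SPARC and IBSP were bright (medians of 10.02 to 13.58) and SPP1 was dim (5.58). Of 11 markers of other cell types, PTPRC, CD14, CDH5 and ALB read 3.61 to 4.69 over all arrays, and CD3E, KRT5, GFAP, PECAM1 and MYOD1 read 5.17 to 6.68. The epithelial markers EPCAM and KRT18 were brighter, with medians of 9.43 and 9.71. Array medians lay between 5.59 and 5.64. SMYD2 array 1 stood apart in the ACTB control probe sets: its 3′ set exceeded its 5′ set by 3.53, against 0.54 to 2.46 on the other 15 arrays, so values are given with and without it below. In such bulk samples, fewer cells with a transcript and less of it per cell cannot be told apart.

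The promoters of 5 of the genes are shown because they hold the elements that ER stress factors and ATF4 are known to bind, or, for STC2, because it had the largest difference with RB and held none of them. Each is the 250 bases before a RefSeq transcription start (GRCh38.p14), and capitals mark matches to 4 elements searched on both strands. The elements were the ER stress element (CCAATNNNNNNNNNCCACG, bound by ATF6 with NF-Y), the ER stress element II (ATTGGNCCACG), the unfolded protein response element (TGACGTG) and the composite element bound by ATF4 with a C/EBP factor (TGATGNAA).
HERPUD1 (chr16:56931892-56932141, plus strand): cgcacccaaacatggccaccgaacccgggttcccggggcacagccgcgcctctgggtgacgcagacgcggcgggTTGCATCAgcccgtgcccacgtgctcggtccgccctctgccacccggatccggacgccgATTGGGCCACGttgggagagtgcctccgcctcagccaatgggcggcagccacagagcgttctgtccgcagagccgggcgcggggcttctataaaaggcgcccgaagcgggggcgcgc
HSPA5 (chr9:125241344-125241593, minus strand): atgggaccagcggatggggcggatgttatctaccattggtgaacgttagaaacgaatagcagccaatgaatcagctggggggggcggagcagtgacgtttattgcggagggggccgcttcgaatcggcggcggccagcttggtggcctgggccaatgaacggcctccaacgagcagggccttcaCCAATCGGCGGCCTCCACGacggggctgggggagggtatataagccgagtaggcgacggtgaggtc
CHAC1 (chr15:40953221-40953470, plus strand): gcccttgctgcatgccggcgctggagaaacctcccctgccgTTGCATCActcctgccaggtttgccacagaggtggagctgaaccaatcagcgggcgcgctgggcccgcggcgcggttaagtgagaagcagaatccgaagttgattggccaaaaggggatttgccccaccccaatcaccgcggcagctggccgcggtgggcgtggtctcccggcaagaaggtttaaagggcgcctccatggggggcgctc
ASNS (chr7:97872409-97872658, minus strand): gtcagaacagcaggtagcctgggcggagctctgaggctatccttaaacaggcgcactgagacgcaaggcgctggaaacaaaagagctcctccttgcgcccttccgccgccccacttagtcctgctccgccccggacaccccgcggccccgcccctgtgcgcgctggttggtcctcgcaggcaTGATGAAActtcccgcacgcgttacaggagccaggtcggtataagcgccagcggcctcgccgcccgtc
STC2 (chr5:173328415-173328664, minus strand): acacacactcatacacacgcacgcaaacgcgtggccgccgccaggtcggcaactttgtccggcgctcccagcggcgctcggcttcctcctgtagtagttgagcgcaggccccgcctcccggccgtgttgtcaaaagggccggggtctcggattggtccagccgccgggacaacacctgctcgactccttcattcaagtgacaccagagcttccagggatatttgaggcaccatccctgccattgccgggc

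The search covered windows of 300 bases that add the first 50 transcribed bases, and all 10 genes had at least 1 window (15 in all). The ER stress element was matched in HSPA5 alone, from base -66 to base -48 counted from the start, and in 0.0769% of all 35116 windows. The ER stress element II was matched in HERPUD1 alone, from base -117 to base -107, and in 0.0541% of all windows. The composite element was matched in ASNS, CHAC1 and HERPUD1 (3 of the 15 windows), starting at bases -68, -209 and -176, and in 3.62% of all windows. The unfolded protein response element was matched in 0 of the 10 genes and in 1.97% of all windows. The short sequence CCACG, which is part of both ER stress elements, was matched in 8 of the 10 genes, on 11 of their 15 windows, and in 38.1% of all windows. Of the 4 genes that were higher across the arrays with RB in the comparison below, HERPUD1 and CHAC1 held a match to one of the longer elements, and STC2 and DDIT4 held none in these windows.

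HERPUD1 and STC2 rose in each of the 4 comparisons of a group with RB against one without it, and 0 of the 10 genes passed the test when SMYD2 was added. HERPUD1 was 1.45-fold and STC2 1.78-fold higher over the 8 arrays with RB than over the 8 without, and neither gene's arrays overlapped between those sides. CHAC1 and DDIT4 were also higher, 1.34-fold and 1.40-fold, but their arrays overlapped. In fits restricted to the arrays of the 2 groups compared, neither HERPUD1 nor STC2 passed in RB against SMYD2 (limma adjusted p = 0.0760 and 0.124), and STC2 did not pass in RB against control (limma adjusted p = 0.0550). The other 6 genes did not pass, and ATF4 itself differed by -0.01 ± 0.07 (SE).

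HERPUD1 encodes a membrane protein of the ER that helps to assemble the complex for ER-associated degradation. On arrays 1, 3, 4 and 5 its main probe set read 10.63, 10.54, 10.84 and 10.85 with RB plus SMYD2, 10.47, 10.72, 10.79 and 10.64 with RB, 9.99, 10.12, 10.26 and 10.32 with SMYD2, and 9.95, 10.23, 10.14 and 10.18 in control. The lowest array with RB, at 10.47, lay above the highest without it, at 10.32. The same separation of all 8 arrays with RB above all 8 without was seen in 2 of the 10 genes and in 1.64% of all genes tested. Group means ran in the order RB plus SMYD2 (10.72 ± 0.16, SD, n = 4), RB (10.66 ± 0.14), SMYD2 (10.17 ± 0.15) and control (10.12 ± 0.12), and neighbours within each pair differed by less than their spread.

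With RB plus SMYD2, HERPUD1 exceeded SMYD2 alone by 0.54 ± 0.10 (SE) and control by 0.59 ± 0.10 (limma adjusted p = 0.00228 and 0.00109). RB alone exceeded control by 0.53 ± 0.10 and SMYD2 by 0.49 ± 0.10 (limma adjusted p = 0.00671 and 0.0123). Over the 8 pairs of equal replicate number, the difference made by RB was positive in 8 and ran from 0.43 to 0.65. The pooled difference was 0.54 ± 0.07 (limma adjusted p = 5.36e-05). The call of RB against SMYD2 was lost without RB array 4 (difference 0.44, limma adjusted p = 0.0571). The second HERPUD1 probe set was dim, at 4.68 on average, and its pooled difference of 0.12 ± 0.08 did not pass (limma adjusted p = 0.464 over all probe sets). With the mean of both probe sets in place of the brighter one, RB plus SMYD2 exceeded control by 0.27 ± 0.10 and RB exceeded control by 0.32 ± 0.10, and neither passed (limma adjusted p = 0.124 and 0.100).

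STC2 encodes stanniocalcin 2, a secreted glycoprotein that is induced by ER stress and by hypoxia. It read 9.51, 9.74, 9.12 and 9.45 with RB plus SMYD2, 9.59, 9.94, 9.12 and 8.87 with RB, 8.53, 8.74, 8.54 and 8.58 with SMYD2, and 8.36, 8.80, 8.61 and 8.55 in control. Every array with RB was above every array without it, but by a narrow gap, 8.87 on RB array 5 against 8.80 on control array 3. The spread was wider with RB (SD 0.48) than with SMYD2 (SD 0.10), a difference that was not tested.

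With RB plus SMYD2, STC2 exceeded SMYD2 alone by 0.86 ± 0.18 and control by 0.87 ± 0.18 (limma adjusted p = 0.00661 and 0.00565). RB alone exceeded control by 0.80 ± 0.18 and SMYD2 by 0.78 ± 0.18 (limma adjusted p = 0.0221 and 0.0240). The pooled difference was 0.83 ± 0.13 (limma adjusted p = 0.000279) and was positive in 8 of 8 same-numbered pairs, from 0.32 to 1.23. The call of RB against control was lost without RB array 1 or 3 or control array 1, 4 or 5, with differences of 0.62 to 0.81 (limma adjusted p = 0.0619 to 0.0678). That of RB against SMYD2 was lost without RB array 1 or 3 or SMYD2 array 4 or 5, with differences of 0.60 to 0.78 (limma adjusted p = 0.0525 to 0.0736). The second STC2 probe set, at 8.78 on average, had a pooled difference of 0.75 ± 0.15 over all probe sets (limma adjusted p = 0.00351). Its arrays with RB also lay above those without, but barely, 8.766 on RB array 5 against 8.760 on SMYD2 array 3. The share of all probe sets with such a separation is not given here.

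In counts, 2 of the 10 genes rose in RB plus SMYD2 against SMYD2, where 2.94% of all genes rose, and 0 fell. The same 2 genes, HERPUD1 and STC2, rose in RB plus SMYD2 against control (3.0% of all genes rose), in RB against control (1.24%) and in RB against SMYD2 (1.39%). Pooled over both pairs, 4 of 10 rose against 6.32% of all genes, and 0 fell. Shares over all genes include many dim ones, while all 10 genes had a mean above 6. In a fit of only the 11832 genes with a mean of at least 6, 1292 rose in the pooled comparison. In the same fit 288 rose in RB against control, 360 in RB against SMYD2, 665 in RB plus SMYD2 against SMYD2 and 626 in RB plus SMYD2 against control. The median difference of the 10 genes in RB against control was 0.33, with 8 positive, beside a median of 0.01 and 51.8% positive over all 19775 genes. These comparisons share their control or SMYD2 arrays, so they are not independent. The 10 genes were chosen with earlier results of these data known, so these counts and medians do not test them as a set.

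**Figure D1:**
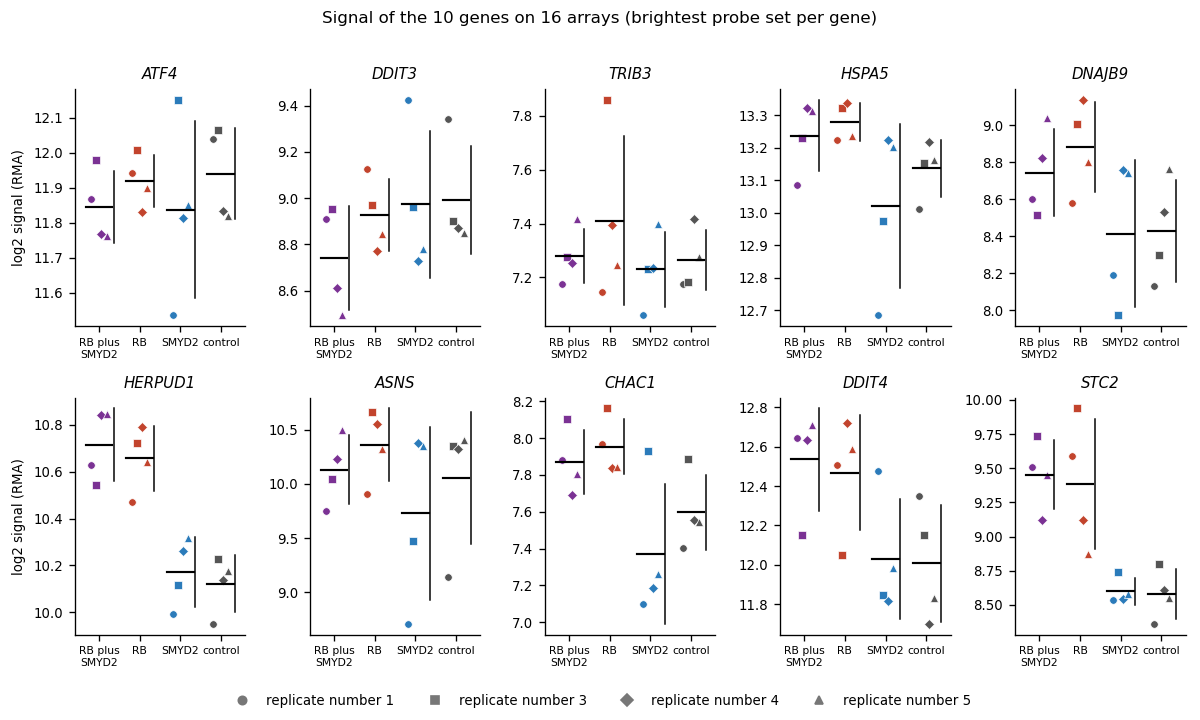
Log2 RMA signal (vertical axes, a separate scale for each gene) of the 10 genes on each of 16 arrays, with groups along the horizontal axes and marker shapes for replicate numbers; horizontal bars are means and vertical bars are 1 SD on either side. For HERPUD1 and STC2 the 8 arrays with RB lie above the 8 without, while ATF4, DDIT3 and TRIB3 overlap in every group.

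CHAC1 degrades glutathione and is a target of ATF4 and DDIT3. It read 7.88, 8.10, 7.69 and 7.81 with RB plus SMYD2, 7.97, 8.16, 7.84 and 7.84 with RB, 7.10, 7.93, 7.19 and 7.26 with SMYD2, and 7.40, 7.89, 7.56 and 7.55 in control. Array 3 was the highest of each group, and SMYD2 array 3 and control array 3 lay among the arrays with RB. The pooled difference was 0.43 ± 0.11 (limma adjusted p = 0.0160), with 8 of 8 same-numbered pairs higher. RB plus SMYD2 against SMYD2 gave 0.50 ± 0.16 (limma adjusted p = 0.0672) and RB against control 0.36 ± 0.16 (limma adjusted p = 0.329). With the replicate number as a block both passed (limma adjusted p = 0.00178 and 0.0309), and the first also passed without SMYD2 array 3 (difference 0.69, limma adjusted p = 0.00282). Without SMYD2 array 1, RB plus SMYD2 against SMYD2 was 0.41 ± 0.16 and did not pass (limma adjusted p = 0.145). RB plus SMYD2 against control gave 0.27 ± 0.16 and passed neither without the block nor with it (limma adjusted p = 0.402 and 0.074).

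DDIT4, also called REDD1, restrains the growth kinase mTORC1 and is induced by ATF4, p53, glucocorticoids and hypoxia. Its probe set was brighter than 98.4% of those on the array and read 12.65, 12.15, 12.63 and 12.71 with RB plus SMYD2, 12.51, 12.05, 12.72 and 12.59 with RB, 12.47, 11.84, 11.82 and 11.98 with SMYD2, and 12.35, 12.15, 11.70 and 11.83 in control. The sides overlapped, since array 3 of both groups with RB lay below array 1 of both groups without it. The pooled difference was 0.48 ± 0.13 (limma adjusted p = 0.0158), higher in 7 of 8 same-numbered pairs. RB plus SMYD2 exceeded SMYD2 by 0.51 ± 0.18 and control by 0.53 ± 0.18, and neither passed (limma adjusted p = 0.104 and 0.0915). Both passed with the replicate block (limma adjusted p = 0.0257 and 0.0214).

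Leaving out SMYD2 array 1 made both DDIT4 results pass: RB plus SMYD2 then exceeded SMYD2 by 0.65 ± 0.17 and control by 0.53 ± 0.15 (limma adjusted p = 0.0202 and 0.0393). That made 3 of 10 genes risen in each comparison, where 4.04% and 4.72% of all genes rose. The difference from control does not use SMYD2 array 1 and stayed the same, so only its standard error changed. Against SMYD2, DDIT4 also passed without RB plus SMYD2 array 3 (limma adjusted p = 0.0433). Against control it also passed without that array or without control array 1 (limma adjusted p = 0.0364 and 0.0454). With the replicate block, 5 of 10 genes rose in RB plus SMYD2 against SMYD2 (6.62% of all genes), 3 of 10 in RB plus SMYD2 against control (6.17%), 4 of 10 in RB against control (3.61%) and 6 of 10 in the pooled comparison (10.4%).

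DNAJB9 (ERdj4), an ER co-chaperone that recruits HSPA5 to IRE1, read 8.60, 8.51, 8.82 and 9.04 with RB plus SMYD2, 8.58, 9.01, 9.14 and 8.80 with RB, 8.19, 7.97, 8.76 and 8.74 with SMYD2, and 8.13, 8.30, 8.53 and 8.76 in control. All 8 same-numbered pairs were higher with RB, by 0.04 to 0.71, yet the groups overlapped. The pooled difference of 0.39 ± 0.13 did not pass (limma adjusted p = 0.0627) unless the replicate number was a block (limma adjusted p = 0.00353). It also passed without RB array 1, SMYD2 array 4, SMYD2 array 5 or control array 5 (limma adjusted p = 0.0351 to 0.0419). The other 12 fits that left out 1 array did not pass, with limma adjusted p up to 0.137. Without SMYD2 array 1 the pooled difference was 0.35 ± 0.13 (limma adjusted p = 0.0925). RB against control gave 0.45 ± 0.19 (limma adjusted p = 0.279, and 0.0333 with the replicate block). The 2 dimmer DNAJB9 probe sets gave pooled differences of 0.42 ± 0.22 and 0.31 ± 0.10 (limma adjusted p = 0.343 and 0.0865 over all probe sets).

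HSPA5 (BiP), the main chaperone of the ER, was brighter than 99.2% of probe sets. It read 13.09, 13.23, 13.32 and 13.31 with RB plus SMYD2, 13.22, 13.32, 13.34 and 13.24 with RB, 12.68, 12.97, 13.23 and 13.20 with SMYD2, and 13.01, 13.15, 13.22 and 13.16 in control. The RB and control arrays did not overlap, with the lowest RB array at 13.2242 and the highest control array at 13.2172. The difference was 0.14 ± 0.10 (limma adjusted p = 0.606), and the two-sided exact permutation p of 0.0286 is the lowest possible with 4 arrays on each side. HERPUD1 and STC2 had the same exact permutation p in RB against control, and the remaining members had 0.0571 to 0.8. That p is not adjusted for the number of genes, and the share of all genes without overlap in this comparison is not given here. RB plus SMYD2 exceeded SMYD2 by 0.22 ± 0.10, which passed only with the replicate block (limma adjusted p = 0.214, and 0.0348 with it) and was 0.10 without SMYD2 array 1. The pooled difference of 0.18 ± 0.07 did not pass (limma adjusted p = 0.100) unless the replicate number was a block or SMYD2 array 4 was left out (limma adjusted p = 0.00953 and 0.0440). Without SMYD2 array 1 it was 0.12 ± 0.05 and did not pass (limma adjusted p = 0.107). The dimmer HSPA5 probe set gave 0.21 ± 0.09 (limma adjusted p = 0.178 over all probe sets). It passed without SMYD2 array 1, at 0.28 ± 0.07 (limma adjusted p = 0.01 over all probe sets). That array was the highest of all 16 on the dimmer probe set, at 8.70, but the lowest on the main one, at 12.68.

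ATF4, the factor that gives the branch its name, was bright and nearly flat in group means, at 11.84 ± 0.10 with RB plus SMYD2, 11.92 ± 0.07 with RB, 11.84 ± 0.25 with SMYD2 and 11.94 ± 0.13 in control (SD, n = 4 each). SMYD2 held both the lowest array of all, 11.54 on array 1, and the highest, 12.15 on array 3. RB against control differed by -0.02 with a 95% interval from -0.24 to 0.20. DDIT3, the pro-apoptotic factor CHOP, had means of 8.74 ± 0.22, 8.93 ± 0.16, 8.97 ± 0.32 and 8.99 ± 0.23 in the same order of groups. Its pooled difference was -0.15 ± 0.11 (limma adjusted p = 0.475), and 1 of 8 same-numbered pairs was higher with RB. TRIB3, a pseudokinase induced by both factors that feeds back on them, had means of 7.28 ± 0.10, 7.41 ± 0.32, 7.23 ± 0.14 and 7.26 ± 0.11. Its 1 high array was RB array 3, at 7.86, and its pooled difference was 0.10 ± 0.09 (limma adjusted p = 0.580). The dimmer TRIB3 probe set differed by -0.02 ± 0.06.

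ASNS, asparagine synthetase, had the largest standard error of the 10 genes, 0.33 for a difference between groups. It read 9.75, 10.04, 10.23 and 10.50 with RB plus SMYD2, 9.90, 10.66, 10.56 and 10.32 with RB, 8.71, 9.48, 10.38 and 10.35 with SMYD2, and 9.14, 10.35, 10.32 and 10.41 in control. Array 1 was the lowest of every group. The pooled difference of 0.35 ± 0.24 did not pass (limma adjusted p = 0.412) and was 0.18 without SMYD2 array 1. Its second probe set read 3.94 on average, brighter than 12.3% of probe sets, and its pooled difference was -0.06 ± 0.07.

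**Figure D2:**
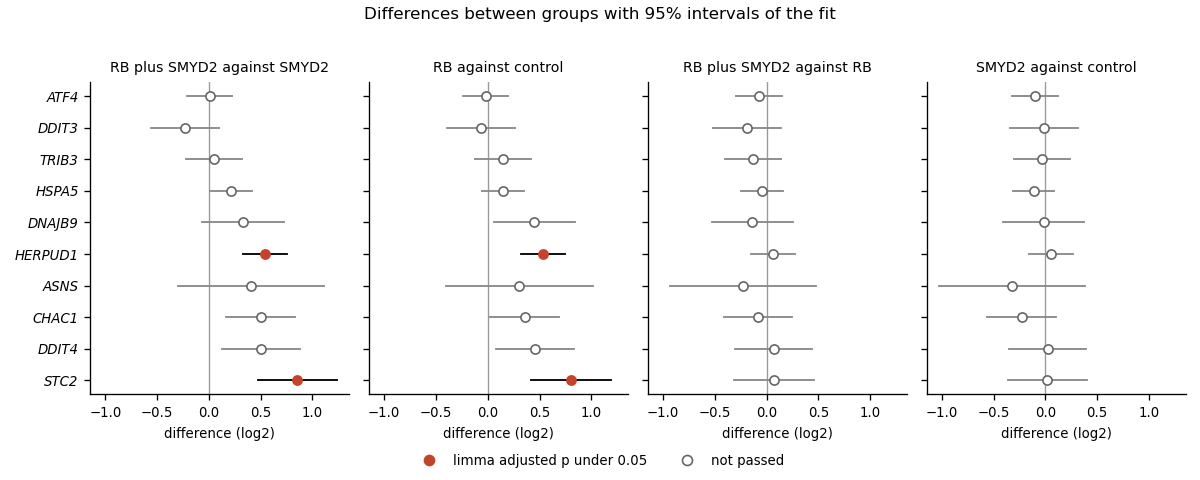
Differences of the 10 genes (rows, log2) in 4 comparisons, with 95% intervals of the limma fit; filled points passed at an adjusted p under 0.05. HERPUD1 and STC2 passed in both comparisons that add RB, and 0 genes passed in the 2 that add SMYD2.

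With SMYD2 added, 0 of the 10 genes passed the test, and most differences were small. In RB plus SMYD2 against RB, limma called 0 of 10 members and 0% of all genes (856 genes at an unadjusted p under 0.05). HERPUD1 differed by 0.06, with a 95% interval from -0.15 to 0.27, and STC2 by 0.07, from -0.31 to 0.46. ATF4, CHAC1 and DDIT3 were lower with RB plus SMYD2 in 4 of 4 same-numbered pairs, with mean differences of -0.07 ± 0.10, -0.08 ± 0.16 and -0.19 ± 0.16, within the spread between arrays. In SMYD2 against control, 0 of 10 members and 0% of all genes were called (572 genes at an unadjusted p under 0.05), with ASNS lowest at -0.33 ± 0.33 and HERPUD1 highest at 0.05 ± 0.10. The pooled SMYD2 difference also gave 0 of 10 and 0% of all genes (898 unadjusted). The interaction, which sets the effect of RB in the presence of SMYD2 against its effect alone, gave 0 of 10 and 0% of all genes (582 unadjusted), from -0.17 for DDIT3 to 0.14 for CHAC1. The 95% intervals for RB plus SMYD2 against RB were wide for DDIT4, from -0.31 to 0.44, and for DNAJB9, from -0.53 to 0.26.

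SMYD2 array 1 moved several values in comparisons that use the SMYD2 group. Without it, SMYD2 against control was 0.01 for ASNS in place of -0.33, and RB plus SMYD2 against SMYD2 was 0.06 in place of 0.40. RB against SMYD2 was 0.29 for ASNS in place of 0.63, and 0.15 for HSPA5 in place of 0.26. HSPA5 differed between SMYD2 and control by less than 0.01 without the array, against -0.12 with it. For HERPUD1 and STC2 the difference between RB plus SMYD2 and SMYD2 was 0.48 and 0.83 without the array (limma adjusted p = 0.00432 and 0.0125).

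**Figure D3:**
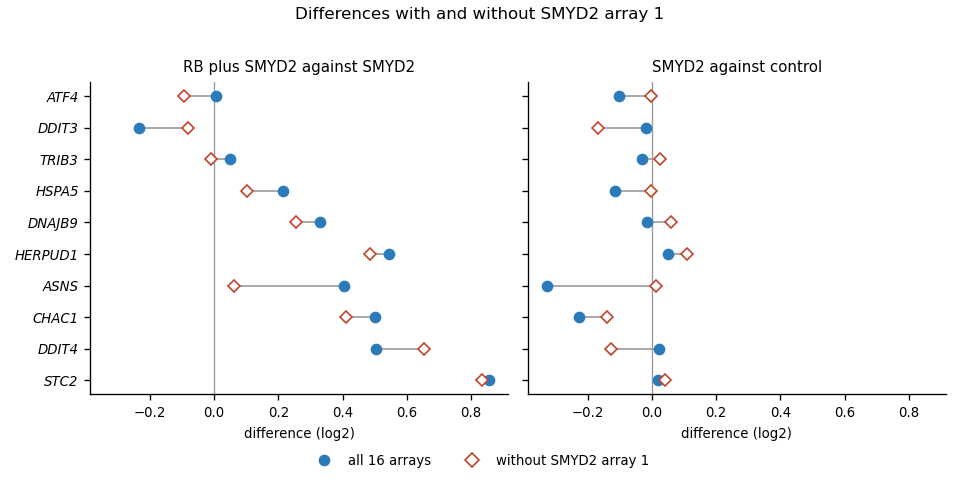
Differences of the 10 genes (rows, log2) with all 16 arrays (filled circles) and without SMYD2 array 1 (open diamonds) in 2 of the comparisons that use the SMYD2 group. ASNS moved most, to 0.06 in RB plus SMYD2 against SMYD2 and to 0.01 in SMYD2 against control.

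Several of the genes also differed by replicate number. A fit with group and replicate number gave a replicate number effect for 5 of 10 members by limma's moderated F test, ASNS, DDIT3, CHAC1, DNAJB9 and HSPA5, where 15.9% of all genes had one. In a fit of only the 11832 genes with a mean of at least 6, a range that holds all 10 members, 3268 had one. The sources used here do not say what a replicate number stands for. The mean of ASNS was 9.38 on the 4 arrays numbered 1, 10.13 on number 3, 10.37 on number 4 and 10.40 on number 5 (limma adjusted p = 0.00240). DDIT3 ran the other way, at 9.20 on number 1, 8.95 on number 3 and 8.75 and 8.74 on numbers 4 and 5 (limma adjusted p = 0.00408).

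CHAC1 was highest on number 3, at 8.02, against 7.57 to 7.62 on the other numbers (limma adjusted p = 0.00751). DNAJB9 was 8.38 and 8.45 on numbers 1 and 3 and 8.81 and 8.84 on numbers 4 and 5 (limma adjusted p = 0.0198). HSPA5 spanned 13.00 to 13.28 (limma adjusted p = 0.0294), a call kept in 9 of the 16 fits that left out 1 array. HERPUD1 and STC2 did not pass with all arrays (limma adjusted p = 0.0725 and 0.0696), nor did DDIT4 and TRIB3, and ATF4 passed only without SMYD2 array 1 (0.126 with it and 0.00431 without). Without control array 1 the count was 3 of 10, and the share of all genes was 8.85%.

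The ACTB control probe sets moved with the replicate number as well. The 3′ set exceeded the 5′ set by 2.20 on average on number 1 (1.17 to 3.53), 1.04 on number 3 and 0.77 on numbers 4 and 5, a ratio that rises as RNA or labelled product becomes shorter. The GAPDH control sets did not follow ACTB: their 3′ minus 5′ difference was 0.02 to 0.16 on number 1, -0.01 to 0.09 on number 3 and 0.07 to 0.10 on numbers 4 and 5. By group the ACTB difference averaged 0.95 with RB plus SMYD2, 1.02 with RB, 1.62 with SMYD2 and 1.17 in control, with SDs of 0.31 to 1.34. Its part in the members' values was not tested.

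**Figure D4:**
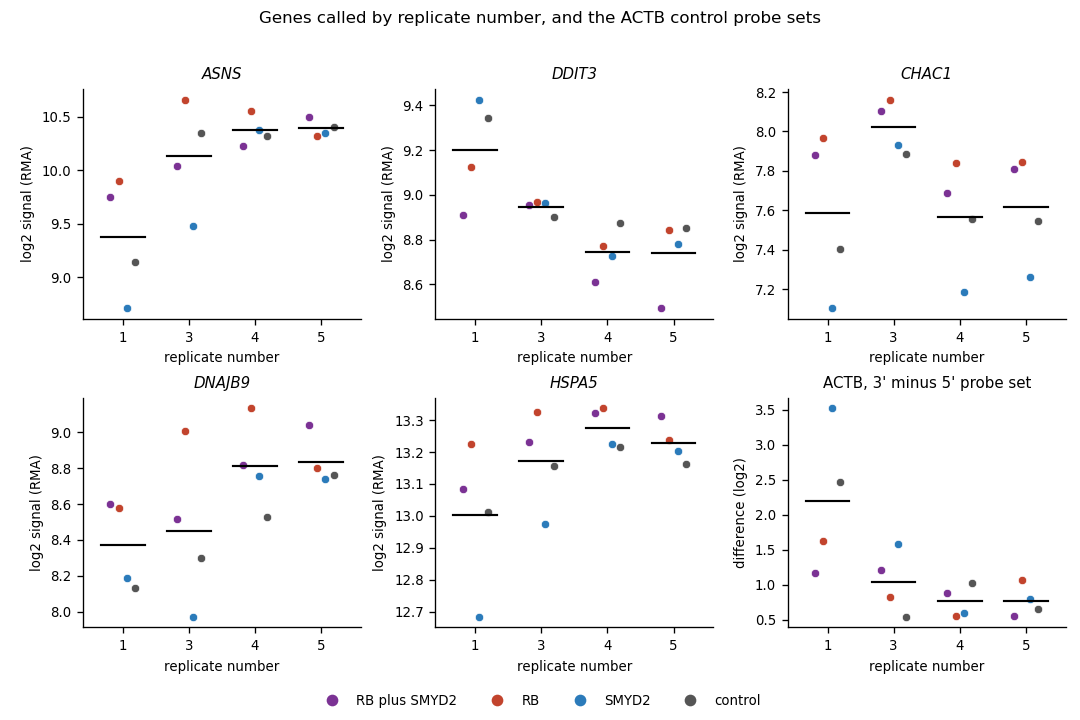
Log2 RMA signal of the 5 genes called by replicate number, and the ACTB 3′ minus 5′ difference (log2), by replicate number on the horizontal axes; points are the 4 groups and bars are means of 4 arrays. ASNS is lowest and DDIT3 highest on number 1, where the ACTB difference averages 2.20.

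The genes whose values ran most like each member over the 16 arrays were ranked by Pearson's r among 11822 genes with a mean of at least 6, as a description, since these arrays share both the RB groups and the replicate numbers. HERPUD1 ran with MAGED2 (r = 0.974), CTSO (0.967) and PFKM (0.963), and STC2 with THBS2 (0.935), CDKN2B (0.931) and HBEGF (0.918). DDIT4 ran with SNAI1 (0.956), ENPP2 and MRC2, and CHAC1 with LINC03074 (0.943), DNAH11 and GLIPR1. ASNS ran with ISCA1, SLC25A46 (both 0.980) and HBS1L, and HSPA5 with TENT2 (0.974), RAB2A and TRAPPC11. DNAJB9 was most like UBFD1 (0.946), TOGARAM1 and ATG4A, and DDIT3 most like USP48 (0.952), DPM1 and SETD2. The lowest values were those of ATF4 with TGIF1 (0.924), PDLIM3 and TUSC3, and of TRIB3 with RPL27A (0.888), ZNF404 and C11orf24.

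Other genes of these pathways were read from 8 lists. Over the 8 arrays with RB against the 8 without, each list held at least 1 gene that passed, and the medians of the lists lay between -0.08 and 0.11, beside 0.37 for the 10 genes and 0.01 for all genes. The 10 genes and the lists were chosen with earlier results of these data known. The gap between their medians may reflect that choice and was not tested. Over all genes, 1249 rose and 1268 fell in this comparison, which is 6.32% and 6.41% of those tested. Among 20 sensors and transducers, 4 rose, 1 fell and 15 did not pass, with a median of 0.09. ATF6B, a relative of the sensor ATF6, rose by 0.36 ± 0.09, ATF3, a stress-induced partner of ATF4, by 0.33 ± 0.08, and MBTPS2, the protease that releases ATF6, by 0.28 ± 0.06 (limma adjusted p = 0.0133, 0.00714 and 0.00427). ATF6 itself, named after its value was seen, rose by 0.22 ± 0.06 (limma adjusted p = 0.0116). PPP1R15B, which directs the phosphatase that reverses eIF2 phosphorylation, fell by 0.24 ± 0.06 (limma adjusted p = 0.0137).

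Among 19 ER chaperones and folding enzymes, 5 rose and 14 did not pass, with a median of 0.11. SIL1, a nucleotide exchange factor of HSPA5, rose by 0.45 ± 0.06, PDIA3, an oxidoreductase of glycoprotein folding, by 0.33 ± 0.10, and PPIB, an ER peptidyl-prolyl isomerase, by 0.18 ± 0.04 (limma adjusted p = 0.000134, 0.0323 and 0.00749). DNAJB11, a co-chaperone of HSPA5, rose by 0.24 ± 0.07 (limma adjusted p = 0.0247). Among 19 genes of ER-associated degradation, 3 rose and 1 fell. The lectin ERLEC1 rose by 0.32 ± 0.09 and the mannosidases EDEM2 and MAN1B1 by 0.31 ± 0.07 and 0.29 ± 0.06, while UFD1, a cofactor of the VCP segregase, fell by 0.28 ± 0.05 (limma adjusted p = 0.0191, 0.00699, 0.00350 and 0.000569).

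Among 19 genes of amino acid synthesis and transport, 3 rose, 3 fell and 13 did not pass, with a median of -0.02. The leucine transporter SLC7A5 rose by 0.33 ± 0.05 and the proline synthesis enzyme PYCR1 by 0.25 ± 0.06, while PHGDH, which opens serine synthesis, fell by 0.43 ± 0.07 and the neutral amino acid transporter SLC1A4 by 0.29 ± 0.08 (limma adjusted p = 0.000158, 0.0152, 0.000753 and 0.0221). Of 17 cytosolic tRNA synthetases 2 rose, SARS1 by 0.28 ± 0.08 and CARS1 by 0.23 ± 0.07 (limma adjusted p = 0.0334 and 0.0275).

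Of 18 other ATF4 and stress targets, 2 rose, 2 fell and 14 did not pass. TRIB2 and TRIB1, pseudokinase relatives of TRIB3, rose by 0.71 ± 0.13 and 0.54 ± 0.12 (limma adjusted p = 0.00107 and 0.00602), with the same sign in 1 of the 3 probe sets of TRIB1. NIBAN1, which is induced by eIF2 kinase signalling, fell by 0.76 ± 0.09, and CHAC2, a constitutive relative of CHAC1, by 0.53 ± 0.08 (limma adjusted p = 2.5e-05 and 0.000298).

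DDIT4 and STC2 are also known hypoxia-induced genes. Of 19 other such genes, 3 rose and 16 did not pass, with a median of 0.10: the stress-responsive NDRG1 by 0.60 ± 0.10, the MYC antagonist MXI1 by 0.46 ± 0.07 and the collagen prolyl hydroxylase subunit P4HA2 by 0.40 ± 0.05 (limma adjusted p = 0.000543, 0.000139 and 5.6e-05). Of 15 cytosolic and mitochondrial heat shock genes, 0 rose and 1 fell, HSPE1, the co-chaperonin of mitochondrial HSP60, by 0.20 ± 0.06 (limma adjusted p = 0.0267).

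In RB against control alone, fewer list genes passed. SIL1 (0.45 ± 0.09), SLC7A5 (0.34 ± 0.07), NDRG1 (0.58 ± 0.14), MXI1 (0.43 ± 0.09) and P4HA2 (0.35 ± 0.08) rose, and UFD1 (-0.26 ± 0.07), NIBAN1 (-0.60 ± 0.13) and CHAC2 (-0.53 ± 0.12) fell (limma adjusted p = 0.00957 to 0.0435). All 15 heat shock genes differed below 0 there, with a median of -0.08 and 0 called. With the replicate block, the genes that rose became 2 of 20 sensors, 3 of 19 chaperones, 1 of 19 degradation genes, 2 of 19 amino acid genes, 2 of 17 synthetases, 2 of 18 other targets, 4 of 19 hypoxia genes and 0 of 15 heat shock genes, where 3.61% of all genes rose and 3.47% fell. The genes that fell with the block were 1 of the degradation genes, 1 of the amino acid genes, 2 of the other targets and 0 of the other 5 lists. In RB plus SMYD2 against RB, 0 genes of any list passed, and the widest differences were those of GDF15 (-0.31 ± 0.16), PDK1 (-0.29 ± 0.24), PHGDH (-0.26 ± 0.11) and SLC7A11 (-0.26 ± 0.22).

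**Figure D5:**
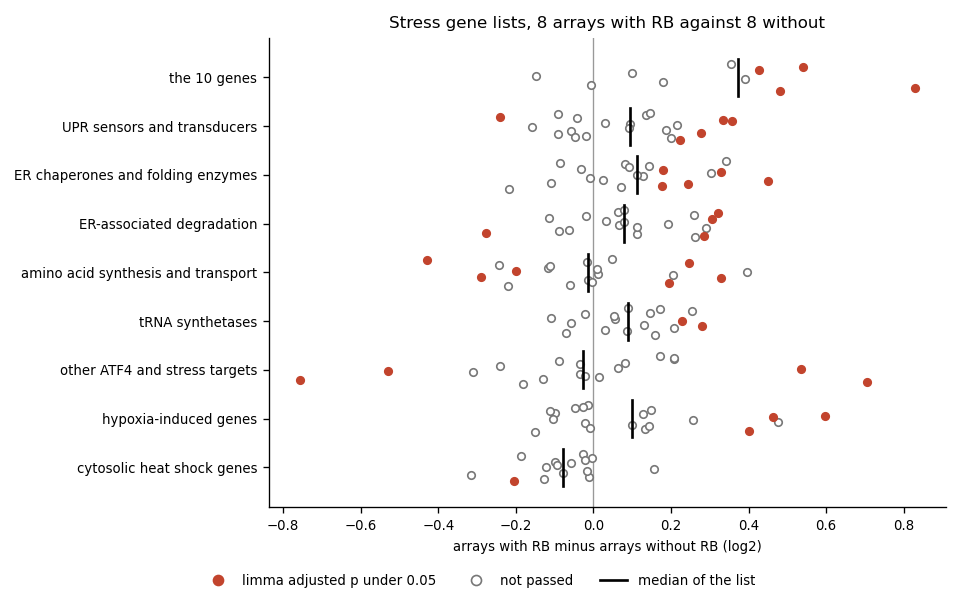
Difference between the 8 arrays with RB and the 8 without (log2, horizontal axis) for each measured gene of 8 stress lists and the 10 genes; filled points passed at a limma adjusted p under 0.05 and vertical bars are medians. The 10 genes have a median of 0.37, and the medians of the 8 lists lie between -0.08 and 0.11. Both were chosen with earlier results of these data known.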

How the data were processed

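Affymetrix U133 Plus 2.0 arrays measured total RNA from 16 samples of SAOS cells. The authors deposited log2 signals of 54675 probe sets per array in 1 table, made with RMA, per the submitters' processing notes, which give no version. No detection calls were used here, so dim signals and background were not told apart, and precision is limited by the number of arrays. Probe sets with 1 gene symbol in the platform annotation (41097, against 1801 with several and 11777 with none) were kept, and each gene was represented by its brightest probe set (19775 genes).

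limma 3.58.1 (R 4.3.3) compared the groups: lmFit took 1 mean per group from all 16 arrays and eBayes a variance trend. Tests were two-sided, adjusted over all genes by Benjamini-Hochberg, and called at 0.05. Other probe sets of a gene were tested in a fit over all probe sets. Errors of differences are standard errors of the fit. The pooled RB difference is the mean of both groups with RB minus the mean of both without. Exact permutation tests used scipy 1.17.1, figures matplotlib 3.10.9. The fit of the groups was tested on simulated data with independent arrays and no replicate number effect. That test does not cover the differences by replicate number seen in the real arrays.

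Deviations from the group means of same-numbered arrays correlated at 0.145 or more for all pairs of groups except RB with SMYD2 (-0.077 on number 5). Differently numbered arrays reached at most 0.201 to 0.522, depending on the pair of groups. In every pair of groups this was above the lowest same-numbered value, so these correlations do not settle whether equal numbers mark pairs. In the Results the replicate block is given as an alternative beside the comparisons other than RB against SMYD2 if a call or count changes under it. For RB against SMYD2 the block appears only in the counts of the closing section. The 10 genes and the 8 lists were chosen with earlier results of these data known. Genes named are the 10 members and, per list, the 2 with the largest difference in RB against control and in RB plus SMYD2 against RB and up to 4 called genes. Alternatives covered the probe set choice, a filter on dim genes, scaling, array weights, the variance trend, the arrays fitted, a block for the replicate number and leaving out each array.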

Additional observations from a re-analysis of the deposited data

Results flagged for a closer look

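Among the 40 groups of 4 arrays formed by the 10 genes, 3 held an array far from the other 3 by Dixon's test at the 95% level, and chance flags about 1 in 20 such groups. DDIT4 read 12.15 on RB plus SMYD2 array 3, against 12.63 to 12.71 on the other arrays of that group. DDIT3 read 9.34 on control array 1, against 8.85 to 8.90, and ASNS read 9.14 on control array 1, against 10.32 to 10.41.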

How the results depend on the processing

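Of 2130 differences of single members under the alternatives, 2063 kept their side of the threshold or stayed within 1 SD, 15 lost a call, 52 gained one and 0 turned. In RB against control, 2 members were called, 1 with the mean of all probe sets of a gene, 1 with only the arrays of the groups compared, 4 with the replicate block, 5 with the block and SMYD2 array 1 left out (an alternative chosen after seeing the data), and 1 to 2 with single arrays left out. In RB plus SMYD2 against SMYD2, 2 were called, 4 with array weights, 5 with the block, and 4 with the block and without SMYD2 array 1. In RB plus SMYD2 against control, 2 were called, 3 with the block, and 5 with the block and without SMYD2 array 1. There HERPUD1 was not called with the mean of all probe sets of a gene (limma adjusted p = 0.124). DDIT4 was called in 3 of the 16 fits of that comparison with single arrays left out. In RB against SMYD2, 2 were called, 4 with array weights, 0 with only the arrays compared, 6 with the block, 6 with the block and without SMYD2 array 1, and 1 to 3 with single arrays left out. The fits on only the arrays compared hold 8 arrays in place of 16. The pooled count was 4, and 6 with the block, which added DNAJB9 and HSPA5 (limma adjusted p = 0.00353 and 0.00953). Members called by replicate number were 5, and 3 to 6 with single arrays left out. The counts of 0 for SMYD2 and the interaction stayed at 0 in every alternative run. Over all genes, RB against control called 585, 1399 with the block and 2296 with array weights. Apart from these, the cause of each change was not tested.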
